A study of Mus musculus with 4 samples.

Results

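TRBV1 is 1 of the variable (V) genes from which mouse T cells build the beta chain of their T cell receptor. All beta chain contigs called TRBV1 in 2 deposited T cell receptor libraries of MC38 tumours were taken, and they came to 85 of 713 beta chain contigs, in 85 of 677 cells with a beta chain. These contigs made up 42 clonotypes, which are groups of cells that the authors' pipeline gave the same receptor identifier. The size of a TRBV1 clonotype is counted here over its cells with a TRBV1 contig. TRBV1 was chosen by its share of cells and clonotypes in these same libraries, so those shares are a description of what chose it.

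MC38 is a colon carcinoma line of the C57BL/6J mouse strain, the host strain here. The libraries were made with 10x Chromium 5′ chemistry from whole tumours of anti-PD-1-treated animals, with the tumour line wild type (WT) in 1 library and p53 knockout (p53 KO) in the other. Receptor contigs hold nothing on p53 or on tissue markers, so genotype and tissue are as labelled. Anti-PD-1, which both groups received, blocks an inhibitory receptor of T cells. The labels give neither the number of mice, the dose nor the time, and gene expression was not analysed here. With 1 library per genotype, no difference has a replicate check, no test was made, and genotype and library cannot be told apart. Intervals in brackets are exact Clopper-Pearson 95% intervals and cover counting error only, since cells of 1 clone are not independent.

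A beta chain is assembled in the thymus by joining a V, a D and a J gene, with bases lost and added at both joints, and is spliced to a constant (C) gene. The third complementarity-determining region (CDR3) spans these joints and lies closest to the bound peptide, while CDR1 and CDR2 are encoded by the V gene alone. The beta chain pairs with an alpha chain made in the same way from TRAV and TRAJ genes. The older name of TRBV1 is V beta 2.

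The TRBV1 gene lies on chromosome 6 at 40891296 to 40891885 in GRCm38.p6, the assembly of mm10, by the RefSeq annotation. It has the lowest coordinate of the 35 TRBV genes in that table, and 155670 bases separate it from the next, TRBV2. The largest gap among the others, leaving out the one before TRBV31, is 30207 bases. TRBD1 (41533201 to 41533212) starts 641315 bases after the end of TRBV1 and TRBD2 (41542163 to 41542176) starts 650277 bases after it. The TRBJ1 genes and TRBC1 follow TRBD1, and the TRBJ2 genes and TRBC2 follow TRBD2.

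All 85 TRBV1 contigs had 1 and the same nucleotide sequence in framework 1, CDR1, framework 2, CDR2 and framework 3. The CDR1 and CDR2, which no contig of another TRBV gene carried, are shown with the 13 bases that start every TRBV1 CDR3.
TRBV1 CDR1: aattcccagtatccctgg
TRBV1 CDR2: ctgcggagtcctggggac
TRBV1 CDR3 start: tgcacctgcagtg

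The TRBV1 chains differed only beyond that start. The CDR3s of the largest clonotypes of each library are shown because they hold most of the cells discussed here. The capitals are the bases between the 13 shared ones and the end of the J gene, the latter being the run that 90% or more of all beta chains with that J gene share. Capitals can include bases of the V, D and J genes, so their number is not a count of added bases.
WT clonotype 3, TRBJ1-1, 7 cells: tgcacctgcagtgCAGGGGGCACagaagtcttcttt
WT clonotype 16, TRBJ2-2, 3 cells: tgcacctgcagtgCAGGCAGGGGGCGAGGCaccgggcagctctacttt
WT clonotype 35, TRBJ2-7, 2 cells: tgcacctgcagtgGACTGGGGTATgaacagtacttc
WT clonotype 48, TRBJ1-6, 2 cells: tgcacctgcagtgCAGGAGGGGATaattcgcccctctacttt
WT clonotype 49, TRBJ2-2, 2 cells: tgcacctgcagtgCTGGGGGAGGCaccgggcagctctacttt
p53 KO clonotype 1, TRBJ2-2, 30 cells: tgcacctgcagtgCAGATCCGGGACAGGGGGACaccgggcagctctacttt
p53 KO clonotype 34, TRBJ2-7, 2 cells: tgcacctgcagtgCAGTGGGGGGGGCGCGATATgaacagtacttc

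The largest p53 KO chain had 20 bases in capitals and the largest WT chain 10. They used different J genes, and the p53 KO CDR3 was 51 bases long against 36 for the WT one. No TRBV1 CDR3 was found in both libraries: the count of shared sequences was 0 at the nucleotide and 0 at the amino acid level, out of 39 distinct nucleotide and 38 distinct amino acid sequences. The libraries shared 0 cell barcodes.

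Each library was small, and TRBV1 rested on 249 of 4280 receptor UMIs (unique molecular identifiers, 1 per captured RNA molecule) in WT and 428 of 4138 in p53 KO. The median TRBV1 cell of the WT library had 4 beta chain UMIs (1 to 28) and that of the p53 KO library 8 (2 to 27), against medians of 4 and 5 in cells of other TRBV genes. More than 1 beta chain, a mark of a possible doublet, was seen in 3 of 39 WT (7.69%) and 1 of 46 p53 KO (2.17%) TRBV1 cells. In cells of other TRBV genes it was seen in 11 of 287 (3.83%) and 21 of 305 (6.89%), with overlapping intervals in both libraries.

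TRBV1 was carried by 39 of 326 WT cells with a beta chain (12.0%, 8.65 to 16.0) and by 46 of 351 p53 KO cells (13.1%, 9.76 to 17.1). Counted by clonotypes it was 26 of 240 (10.8%, 7.20 to 15.5) for WT and 16 of 230 (6.96%, 4.03 to 11.1) for p53 KO. The share of cells was thus slightly higher in p53 KO while the share of clonotypes was lower, and in both cases the intervals overlap. Among 22 TRBV genes seen in each library, TRBV1 ranked 3 in WT by clonotypes, after TRBV12-2+TRBV13-2 with 30 and before TRBV13-1 with 21. It ranked 3 by cells there too. In p53 KO it ranked 6 by clonotypes, between TRBV12-2 with 18 and TRBV5 with 15, but 2 by cells, after TRBV19 with 47 cells and before TRBV5 with 33. The interval of the TRBV1 share held the share of each of these neighbours except TRBV5 by cells in p53 KO, which at 9.40% lay just below it.

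**Figure D1:**
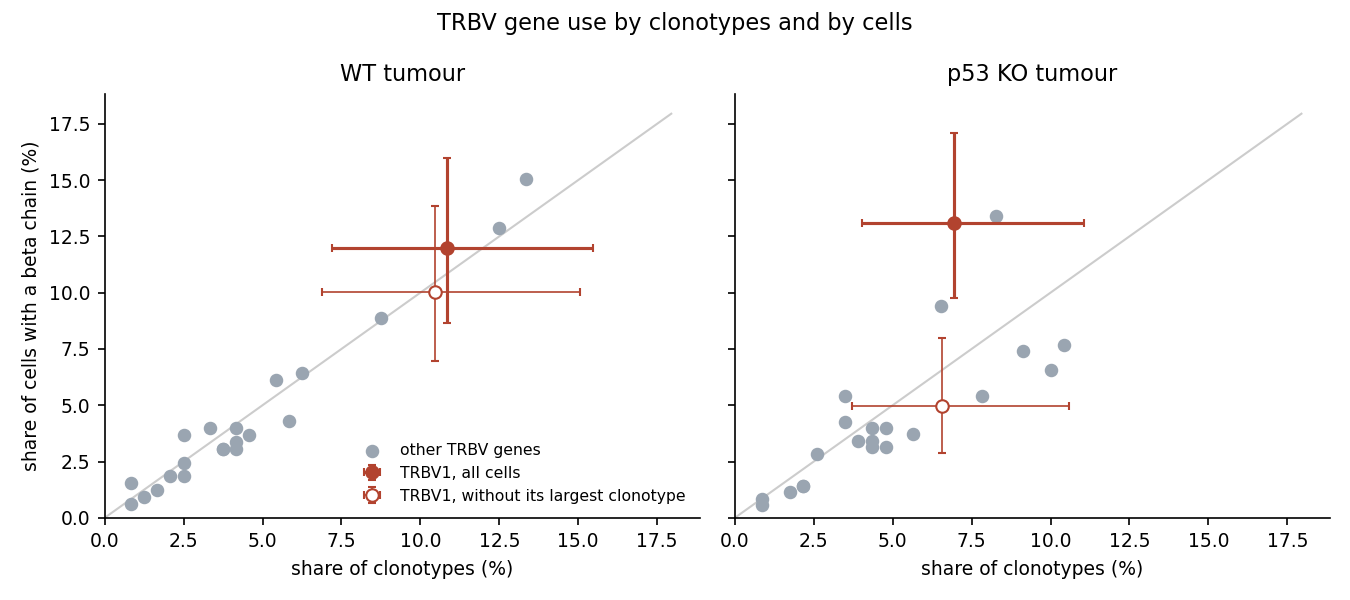
Share of clonotypes (x axis, %) against share of cells with a beta chain (y axis, %) for each TRBV gene in the WT and p53 KO libraries; the line marks equal shares and bars are exact 95% intervals. TRBV1 lies near the line in WT and above it in p53 KO at 6.96% of clonotypes and 13.1% of cells, and lies at 4.98% of cells there when its largest clonotype is left out (open circle).

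The difference between cells and clonotypes in p53 KO rested on 1 clone. Clonotype 1 held 30 of the 46 p53 KO TRBV1 cells (65.2%, 49.8 to 78.6), while the largest WT one, clonotype 3, held 7 of 39 (17.9%, 7.54 to 33.5). Without these, TRBV1 made up 32 of 319 WT cells (10.0%, 6.96 to 13.9) and 16 of 321 p53 KO cells (4.98%, 2.88 to 7.97). The order of the libraries by cells was then the reverse of that with all cells, and the intervals still overlap. By clonotypes, leaving the largest out changed little, to 10.5% in WT and 6.55% in p53 KO.

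Below the largest clone, TRBV1 clones were small in both libraries. In WT the next sizes were 1 clonotype of 3 cells and 5 of 2 cells, and 19 clonotypes had 1 cell. In p53 KO 1 clonotype had 2 cells and 14 had 1 cell. With cells lacking a TRBV1 contig counted too, WT clonotype 16 had 4 cells in place of 3, and WT clonotype 31 had 2 in place of 1. Clonotypes of 2 or more cells were 7 of 26 (26.9%, 11.6 to 47.8) for WT and 2 of 16 (12.5%, 1.55 to 38.3) for p53 KO, and those of other TRBV genes were 37 of 214 (17.3%, 12.5 to 23.0) and 32 of 214 (15.0%, 10.5 to 20.4). All these intervals overlap within each library, and the order of TRBV1 and other genes turned with the counting. In WT TRBV1 was below other genes among cells with both chains (16.0% against 17.7%) and among beta contigs of 3 or more UMIs (13.0% against 15.1%). In p53 KO it was above them over distinct beta chains (20.0% against 18.0%). The largest clonotype of another TRBV gene had 6 cells in WT and 16 in p53 KO. Counted by the beta chain alone, however, a TRBV19 chain in p53 KO was found in 31 cells over 3 deposited clonotypes, 1 cell more than the largest TRBV1 chain, and a TRBV15 chain in WT in 7 cells, as many as WT clonotype 3.

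**Figure D2:**
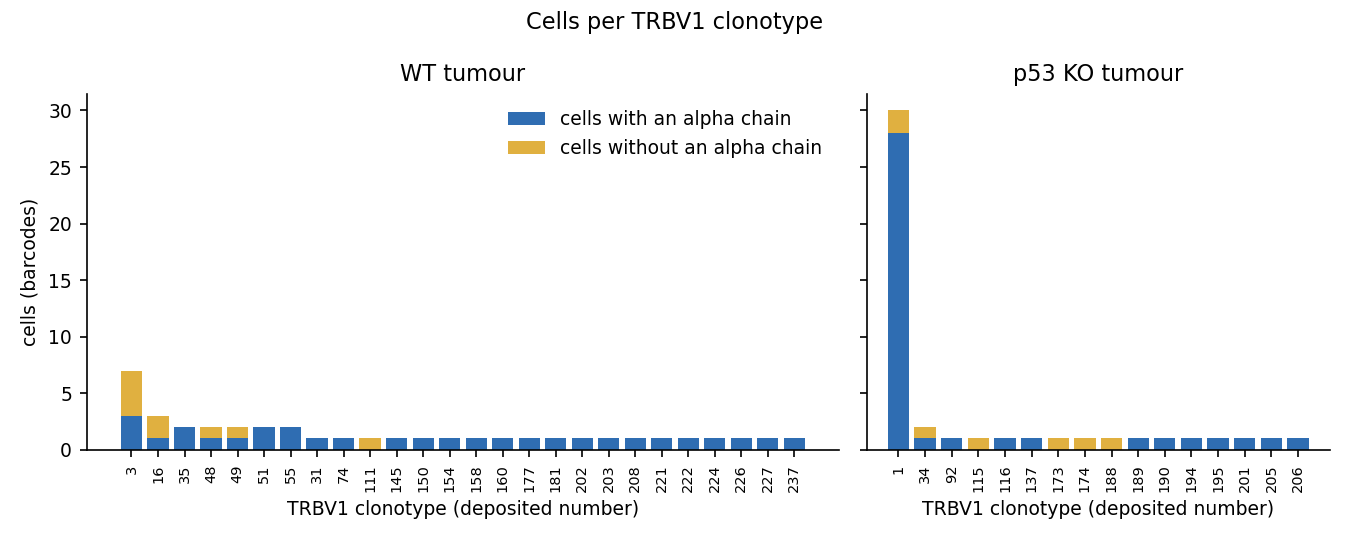
Cells with a TRBV1 contig (barcodes, y axis) of each TRBV1 clonotype (x axis, by its deposited number) in the WT and p53 KO libraries, split into cells with and without an alpha chain. One p53 KO clonotype reaches 30 cells, 28 of them with an alpha chain, while all other TRBV1 clonotypes in both libraries have 7 cells or fewer.

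Every TRBV1 CDR3 began with the same 4 residues, and 0 of 628 contigs of other TRBV genes did. These come from the 13 shared bases, the last of which opens codon 5, so the fifth residue was the first to vary. It was alanine (start CTCSA) in 19 of 26 clonotypes from WT (73.1%, 52.2 to 88.4) and in 13 of 16 from p53 KO (81.3%, 54.4 to 96.0). Glycine (start CTCSG) followed in 4 WT and 2 p53 KO clonotypes, aspartate (CTCSD) in 1 and 1, and valine (CTCSV) in 2 and 0. The alanine codon was GCA in 15 of 19 WT and 10 of 13 p53 KO cases. The residue after CTCSA was more spread out: of the clonotypes from WT 8 of 19 had glycine there (42.1%, 20.3 to 66.5), and from p53 KO 2 of 13 (15.4%, 1.92 to 45.4). Aspartate stood there in 2 WT and 4 p53 KO clonotypes, alanine in 4 and 0, glutamate in 0 and 2, and valine in 2 and 3. By cells glycine led in WT with 19, of which clonotype 3 gave 7. Aspartate led in p53 KO with 33, of which clonotype 1 gave 30. The next residue had 4 cells in each library, alanine in WT and valine in p53 KO.

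The TRBV1 CDR3 beta had a mean length of 13.7 ± 1.49 amino acids in WT (SD over 26 clonotypes, 11 to 17) and 14.5 ± 1.90 in p53 KO (SD over 16 clonotypes, 11 to 17). For other TRBV genes the means were 13.9 ± 1.51 and 14.0 ± 1.34 over 214 clonotypes each. The differences between TRBV1 and other genes were smaller than these SDs and had opposite signs in the libraries. The TRBV1 lengths were split around 13 residues, a length with 2 of 26 clonotypes in WT and 0 of 16 in p53 KO, against 21.0% and 19.2% of clonotypes of other TRBV genes. At 12 residues the counts were 7 of 26 (26.9%) and 3 of 16 (18.8%), against 10.7% and 6.54% for other genes. The 12-residue clonotypes include repeated chains described further on, and the length was singled out after the values were seen. The exact interval of 0 of 16 reaches 20.6% and that of 2 of 26 reaches 25.1%, so both include the shares of other genes. By cells the p53 KO mean was 16.1 amino acids, because clonotype 1 has a CDR3 of 17.

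**Figure D3:**
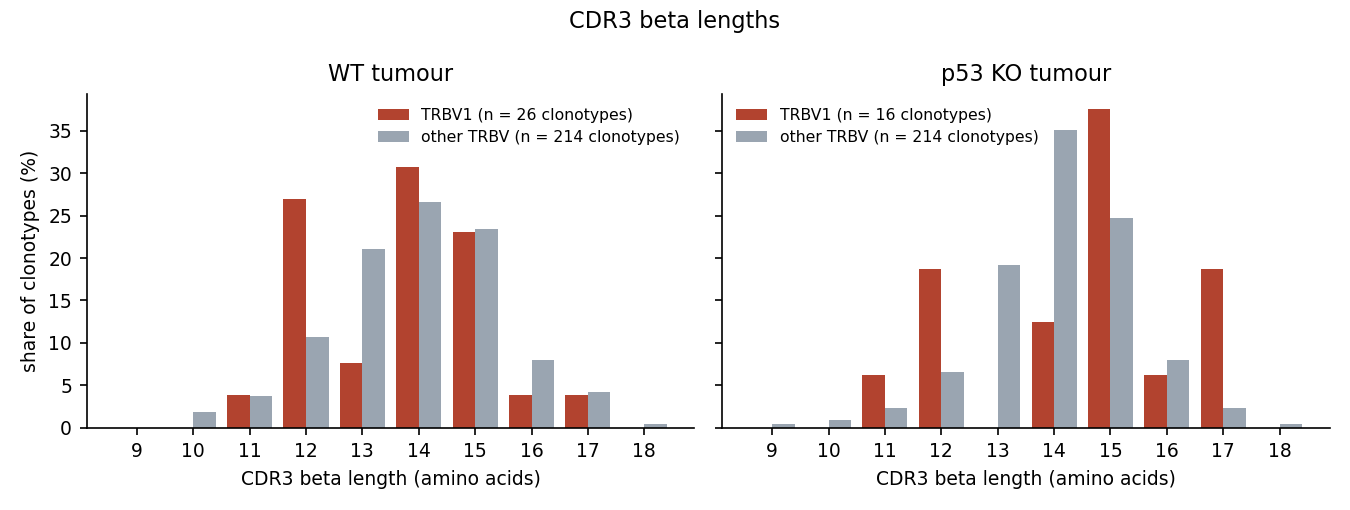
Share of clonotypes (y axis, %) by CDR3 beta length (x axis, amino acids) for TRBV1 and for all other TRBV genes in each library. Other genes peak at 14 residues in both libraries, and TRBV1 has 2 WT clonotypes and 0 p53 KO clonotypes at 13 residues.

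A D gene is short and often trimmed beyond recognition, and the deposited files call one for a minority of chains. A D gene was called for TRBV1 in 8 of 26 clonotypes from WT (30.8%, 14.3 to 51.8) and in 6 of 16 from p53 KO (37.5%, 15.2 to 64.6), against 24.8% (19.1 to 31.1) and 22.0% (16.6 to 28.1) of clonotypes of other TRBV genes. TRBD1 took 8 of the 8 WT and 5 of the 6 p53 KO calls with TRBV1, and 34 of 53 and 30 of 47 calls with other genes. The interval of 8 of 8 begins at 63.1% and that of 5 of 6 at 35.9%, below the 64.2% and 63.8% of other genes. The only TRBD2 call with TRBV1 was in p53 KO, in a chain with TRBJ2-5. Among other genes TRBD2 was called with a TRBJ1 gene in 0 WT and 1 p53 KO clonotypes, so these shares also depend on J use. With TRBJ2 genes alone, TRBV1 had 3 TRBD1 and 0 TRBD2 calls in WT, and 2 and 1 in p53 KO. Other genes had 21 and 19 there in WT, and 14 and 16 in p53 KO.

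As an example of bases in TRBD1-called chains, the 8-base run that most separated these from uncalled chains of other TRBV genes was found. It was read on the coding strand only and then looked for in TRBV1 chains.
Run in TRBD1-called chains: GGACAGGG
This run was in 23 of 61 distinct TRBD1-called chains of other TRBV genes (37.7%), 5 of 312 uncalled ones (1.60%) and 28 of all 408 (6.86%). Among TRBV1 chains it was in 6 of 13 with a TRBD1 call, 0 of 25 without a call, and 6 of all 39 (15.4%). Most TRBD1-called chains thus lack the run. It was chosen by the D calls, so its counts describe the calls and are no separate check of them. The run lies in the 30-cell p53 KO chain above and in these other TRBV1 chains. The first of these in each library keeps the run directly against the shared V start.
WT clonotype 222, TRBJ1-4, 1 cell: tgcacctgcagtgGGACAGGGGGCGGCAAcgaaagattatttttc
WT clonotype 203, TRBJ1-4, 1 cell: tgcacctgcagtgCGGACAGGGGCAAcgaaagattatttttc
p53 KO clonotype 194, TRBJ1-6, 1 cell: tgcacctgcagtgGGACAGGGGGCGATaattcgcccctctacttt
p53 KO clonotype 195, TRBJ2-7, 1 cell: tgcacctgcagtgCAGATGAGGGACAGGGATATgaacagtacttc
p53 KO clonotype 205, TRBJ1-6, 1 cell: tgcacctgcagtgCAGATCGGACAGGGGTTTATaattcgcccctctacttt

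TRBV1 was joined to J genes of both clusters. A TRBJ2 gene was used by 15 of 26 clonotypes from WT (57.7%, 36.9 to 76.6) and by 10 of 16 from p53 KO (62.5%, 35.4 to 84.8), against 74.3% (67.9 to 80.0) and 70.1% (63.5 to 76.1) with other TRBV genes. TRBV1 was thus lower in both libraries, with overlapping intervals. In WT TRBJ1-1, TRBJ2-2 and TRBJ2-3 led with 4 clonotypes each, TRBJ1-4 and TRBJ2-7 had 3 each, and TRBJ1-6 and TRBJ2-1 had 2 each. TRBJ1-3, TRBJ1-5, TRBJ2-4 and TRBJ2-5 had 1 each there. The WT counts of TRBJ2-2 and TRBJ2-3 each include 2 clonotypes with the same beta nucleotide sequence (158 and 160, and 224 and 227), and that of TRBJ1-1 does not. In p53 KO TRBJ2-7 led with 6 clonotypes (37.5%, 15.2 to 64.6), against 21.0% (15.8 to 27.1) with other genes. Of these 6, clonotypes 116 and 137 share 1 beta nucleotide sequence. TRBJ1-3, TRBJ1-6 and TRBJ2-4 had 2 clonotypes each in p53 KO, TRBJ1-1, TRBJ1-4, TRBJ2-2 and TRBJ2-5 had 1 each, and TRBJ1-5, TRBJ2-1 and TRBJ2-3 had 0. TRBJ1-2 had 0 TRBV1 clonotypes in either library, which its intervals allow to be up to 13.2% and 20.6%. By cells, TRBJ2-2 held 30 of 46 p53 KO TRBV1 cells through clonotype 1 alone, and the TRBJ2 share was 51.3% of cells in WT and 87.0% in p53 KO.

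**Figure D4:**
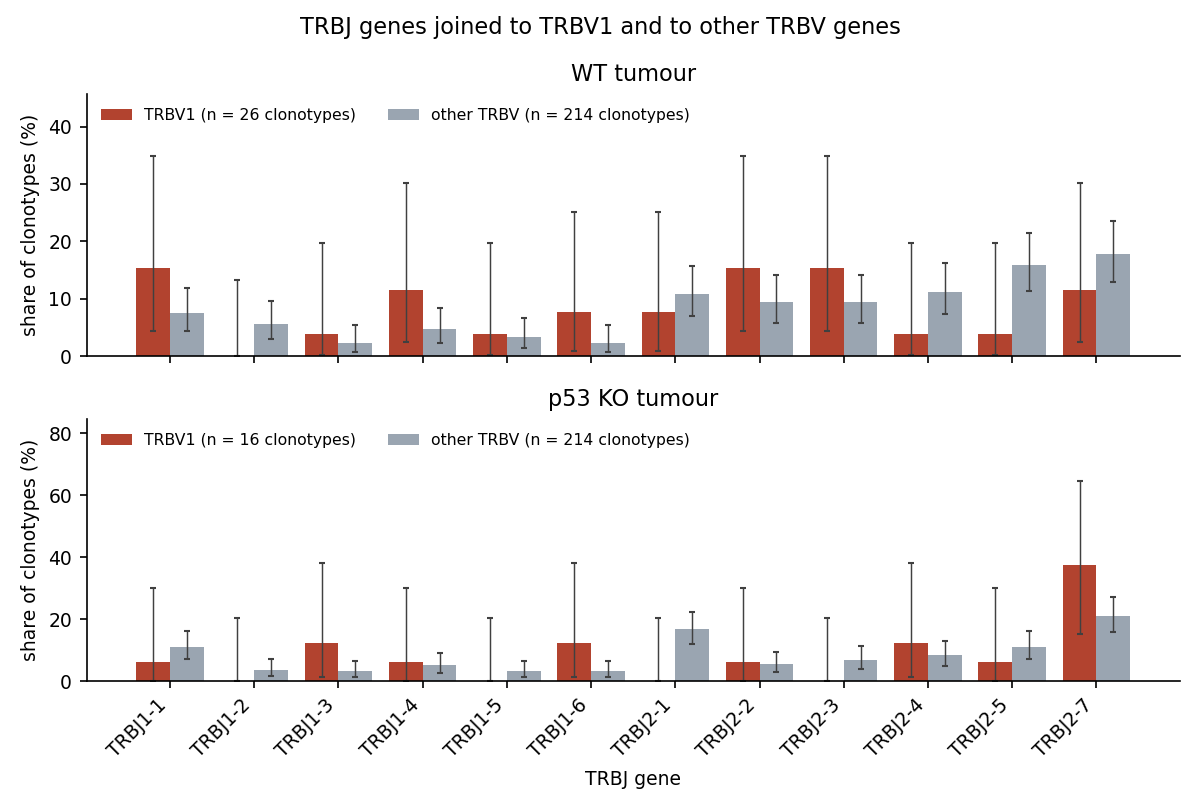
Share of clonotypes (y axis, %) using each TRBJ gene (x axis) with TRBV1 and with other TRBV genes in each library; thin bars are exact 95% intervals and the panels differ in scale. The TRBV1 intervals are wide, and TRBJ2-7 with 37.5% of p53 KO clonotypes is the highest TRBV1 bar.

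The constant gene followed the J cluster. With TRBV1, TRBC2 was called for 15 of 26 clonotypes from WT and 10 of 16 from p53 KO, and TRBC1 in all the others. The C gene came from the same cluster as the J gene in 26 of 26 and 16 of 16, as it did in all 213 and 214 clonotypes of other TRBV genes with a call.

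TRBV1 was paired with alpha chains of many TRAV and TRAJ genes. An alpha chain was found with 25 of 26 WT TRBV1 clonotypes, from 21 TRAV and 15 TRAJ genes, and with 12 of 16 p53 KO ones, from 13 TRAV and 12 TRAJ genes. Other TRBV genes had 70 TRAV and 41 TRAJ genes over 186 WT clonotypes, and 63 and 39 over 156 p53 KO ones. The numbers of clonotypes differ, so these gene counts do not compare diversity. Of 29 TRAV genes over both libraries 19 were seen in 1 clonotype, and of 21 TRAJ genes 13 were. TRAV genes in 3 or more clonotypes were TRAV16N (3 in WT and 1 in p53 KO), TRAV3-3 (3 and 0), TRAV6-6 (1 and 2) and TRAV9-4 (2 and 1). With other TRBV genes these were in 2.15%, 2.69%, 2.69% and 3.76% of WT clonotypes with an alpha chain. In p53 KO the shares were 5.13%, 6.41%, 3.85% and 1.92%, and all intervals overlap those of TRBV1. Of the WT TRAV16N clonotypes, 158 and 160 have the same receptor. TRAJ genes in 3 or more clonotypes were TRAJ23 (6 and 2), TRAJ37 (4 and 3), TRAJ34 (4 and 0), TRAJ40 (3 and 0) and TRAJ21 (2 and 1).

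TRAJ23 was in 6 of 25 WT TRBV1 clonotypes (24.0%, 9.36 to 45.1) against 7.53% (4.18 to 12.3) with other TRBV genes, and in 2 of 12 p53 KO ones (16.7%, 2.09 to 48.4) against 12.2% (7.49 to 18.4). TRAJ37 was in 4 of 25 (16.0%, 4.54 to 36.1) and 3 of 12 (25.0%, 5.49 to 57.2), against 10.2% (6.26 to 15.5) and 7.05% (3.57 to 12.3). Both genes were thus more frequent with TRBV1 in each library, with overlapping intervals. So was TRAJ21, while TRAJ40 was more frequent in WT and not found with TRBV1 in p53 KO, also with overlapping intervals. All these genes, TRAJ34 included, were listed because they were in 3 or more TRBV1 clonotypes. That rule favours genes that are frequent with TRBV1. The comparisons with other TRBV genes therefore describe the listed genes and cannot test a preference of TRBV1 for them. TRAJ34 was in 4 of 25 WT clonotypes (16.0%, 4.54 to 36.1) against 2 of 186 (1.08%, 0.130 to 3.83), and these intervals do not overlap. Of those 4, however, 2 have the same receptor and the other 2 the same beta chain, as described next. With the identical receptors counted once TRAJ34 was in 3 of 24 (12.5%, 2.66 to 32.4), and with each beta chain counted once in 2 of 23 (8.70%, 1.07 to 28.0), so that the intervals overlap.

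The invariant alpha chains of natural killer T cells (TRAV11 or TRAV11D with TRAJ18) and of mucosal-associated invariant T cells (TRAV1 with TRAJ33) were in 0 of 30 WT and 0 of 39 p53 KO TRBV1 cells with an alpha chain. Counts of 0 allow shares of up to 10.0% and 7.69% when taken as 3 counts of the total, and the exact intervals reach 11.6% and 9.03%. These bounds treat cells as independent and are too narrow, since cells of 1 clonotype share their alpha chain. The 30 WT cells came from 25 clonotypes. The 39 p53 KO cells came from 12 clonotypes, and 28 of them carried the alpha chain of clonotype 1. The exact interval of 0 of 12 clonotypes reaches 26.5%. Among cells of other TRBV genes the invariant alpha chains were in 0 of 247 and 6 of 220.

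Several TRBV1 beta chains recurred within a library. WT clonotypes 3 and 150 encoded the same 12 amino acids through different nucleotides, and both used TRBJ1-1 with an alpha chain of TRAV9-4 and TRAJ37. The alpha CDR3s differed in length, with 15 residues in clonotype 3 and 14 in clonotype 150. Capitals in the beta chains are as above, and in the alpha chains they mark the bases between the 11 at the start and the 28 at the end that both share.
WT clonotype 3, beta: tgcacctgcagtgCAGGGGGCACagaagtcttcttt
WT clonotype 150, beta: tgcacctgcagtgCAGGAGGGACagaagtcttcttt
WT clonotype 3, alpha: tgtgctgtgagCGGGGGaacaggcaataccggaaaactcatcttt
WT clonotype 150, alpha: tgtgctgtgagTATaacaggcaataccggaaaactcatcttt

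WT clonotypes 158 and 160, of 1 cell each, carried the same beta and the same alpha chain (TRAV16N with TRAJ34), with 1 distinct sequence in every deposited framework and CDR of both chains. They are nevertheless 2 clonotypes in the deposited files. WT clonotypes 224 and 227, of 1 cell each, shared a beta nucleotide sequence. Their alphas were TRAV6-6 and TRAV15D-1-DV6D-1, both with TRAJ34, and the beta chain rested on 2 UMIs in the first cell and 1 in the second. p53 KO clonotypes 116 and 137 also shared a beta nucleotide sequence, on 14 and 13 UMIs. The cell of 116 had the alphas TRAV16N with TRAJ37 and TRAV9-4 with TRAJ21, and that of 137 had TRAV6-6 with TRAJ13. Both alphas of 116 were also in p53 KO cells with other beta chains, TRAV16N with TRAJ37 in 2 cells and TRAV9-4 with TRAJ21 in 1.
WT clonotypes 158 and 160, beta: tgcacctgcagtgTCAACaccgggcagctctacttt
WT clonotypes 224 and 227, beta: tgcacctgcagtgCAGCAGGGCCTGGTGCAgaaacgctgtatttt
p53 KO clonotypes 116 and 137, beta: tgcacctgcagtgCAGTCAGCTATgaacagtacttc
The chain of 158 and 160 has 5 bases in capitals, the fewest of any TRBV1 chain here. Beyond these repeats, 1 pair of TRBV1 CDR3s of equal length differed by a single residue, WT clonotypes 48 and 208, both with TRBJ1-6.

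Of 28 distinct alpha chains in WT TRBV1 cells, 3 were also in cells without a TRBV1 chain, 1 of them beside another beta chain. The other 2, from WT clonotypes 16 and 31, were each in 1 cell without a beta chain. Those deposited clonotypes held 4 and 2 cells of any chain, against 3 and 1 with a TRBV1 contig. In p53 KO 6 of 15 were also in cells without a TRBV1 chain, each of them beside another beta chain in 1 or more cells. The p53 KO pairings seen in 1 cell carry this limit. The alpha chain of p53 KO clonotype 1, TRAV7D-3 with TRAJ37, was assembled in 28 of its 30 cells and was the only alpha chain in that clonotype. The beta chain had a median of 8 UMIs per cell (2 to 27) and the alpha chain 7 (1 to 22). The same alpha chain was in 3 more p53 KO cells without a TRBV1 chain, 2 of which had no beta chain at all. The alpha chain of WT clonotype 3 was assembled in 3 of its 7 cells and in no cell without a TRBV1 chain. In WT clonotype 16 an alpha chain (TRAV16N with TRAJ21) was found in 1 of 3 TRBV1 cells, besides the cell without a beta chain given above. WT clonotype 35 paired with TRAV3-3 and TRAJ40 in both cells. WT clonotype 48 had TRAV12-3 with TRAJ40 in 1 of 2 cells, and WT clonotype 49 had TRAV9N-4 with TRAJ26 in 1 of 2. p53 KO clonotype 34 had TRAV6-6 with TRAJ18 in 1 of 2 cells on 2 UMIs. That alpha chain was also in 15 p53 KO cells without a TRBV1 chain, 11 of them without a beta chain, so the pairing in clonotype 34 rests on 1 cell with an alpha chain seen beside several beta chains. The p53 KO singletons 92 and 115 were the remaining ones of the largest by number, the first with alphas TRAV16 with TRAJ43 and TRAV17 with TRAJ37, the second with none.

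A missing alpha chain was seen in 9 of 39 WT TRBV1 cells (23.1%, 11.1 to 39.3) and 7 of 46 p53 KO ones (15.2%, 6.34 to 28.9). In cells of other TRBV genes it was 40 of 287 (13.9%, 10.1 to 18.5) in WT and 85 of 305 (27.9%, 22.9 to 33.3) in p53 KO. TRBV1 was thus above the other genes in WT and below them in p53 KO, with overlapping intervals in both. The largest clonotypes drew these shares apart: 4 of 7 cells of WT clonotype 3 lacked an alpha chain (57.1%, 18.4 to 90.1), and 2 of 30 cells of p53 KO clonotype 1 did (6.67%, 0.818 to 22.1). Without them the shares were 5 of 32 (15.6%, 5.28 to 32.8) for WT and 5 of 16 (31.3%, 11.0 to 58.7) for p53 KO, each within 4 percentage points of the other genes. Among the 31 cells of the p53 KO TRBV19 chain, 14 lacked an alpha chain, and without that chain the share for other genes was 25.9% (20.8 to 31.5).

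The cells of WT clonotype 3 without an alpha chain had a median of 6 beta UMIs (4 to 14), and those with one had 4 (2 to 8). The 2 cells of p53 KO clonotype 1 without an alpha chain had a median of 3.5 beta UMIs against 8 in its other cells. Whether the number of UMIs bears on the missing alpha chains was not tested. Counted by clonotypes, 1 of 26 WT and 4 of 16 p53 KO TRBV1 clonotypes had no alpha chain in any cell, against 28 of 214 and 58 of 214 of other genes. By this count TRBV1 was below other genes in both libraries, at 3.85% (0.0973 to 19.6) against 13.1% (8.87 to 18.4) in WT and 25.0% (7.27 to 52.4) against 27.1% (21.3 to 33.6) in p53 KO, so the WT direction is the reverse of that over cells.

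**Figure D5:**
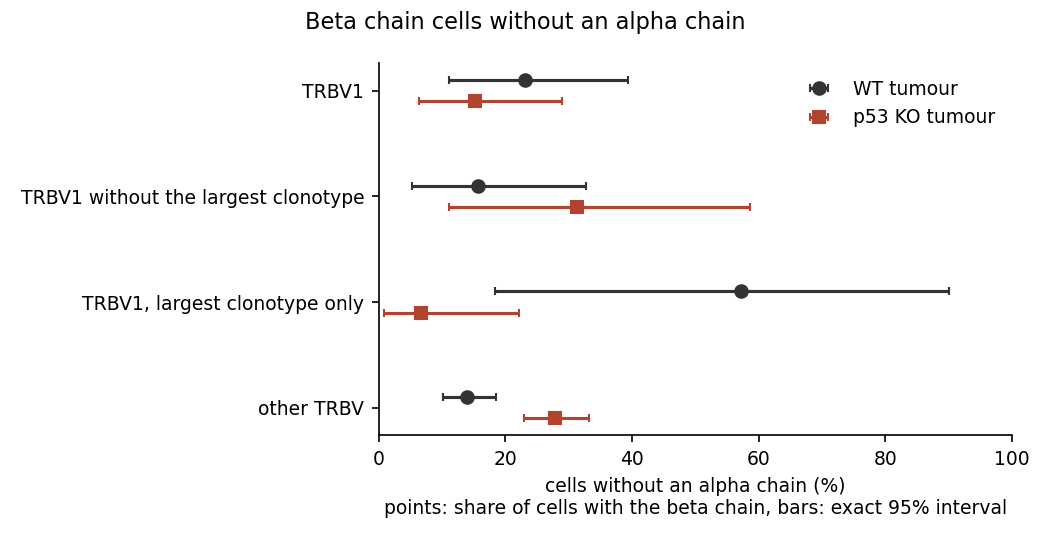
Share of cells without an alpha chain (x axis, %) among TRBV1 cells, TRBV1 cells without the largest clonotype, the largest clonotype alone, and cells of other TRBV genes (y axis); points are shares and bars exact 95% intervals. TRBV1 lies at 23.1% in WT and 15.2% in p53 KO with all cells, and at 15.6% and 31.3% without the largest clonotype.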

How the data were processed

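The 2 T cell receptor libraries were analysed, grouped by the genotype in their titles, with 1 library per genotype. The submitters' processing notes name Cell Ranger 6.1.1 and mm10 but no version of the receptor reference. Per the file headers, the authors deposited filtered contigs with V, D, J and C calls, CDR3 sequences, clonotypes and barcodes, and reads and UMIs per contig as whole-number counts, without normalization. Every contig carried the flags for a called cell, high confidence, full length and productive. A D call was kept if any cell of the clonotype had one. A cell with a TRBV1 contig counted as TRBV1; other cells with several beta contigs were taken by the one with most UMIs. No doublet caller was run. Cells without an alpha chain stayed in. Counting scripts were tested on simulated contigs. Exact Clopper-Pearson intervals and means with SD were computed in Python 3.11.15 with pandas 2.3.3 and scipy 1.17.1.

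The member gene, the lists and the naming rules were chosen with earlier results of these data known. Named were all D, J and C genes found with TRBV1, the 5 largest clonotypes per library (ties by number), alpha genes in 3 or more TRBV1 clonotypes, CDR3s and 5-residue starts in 2 or more, and neighbouring TRBV genes in rank. CTCSD, the 8-base run with its 5 further chains, clonotype 208, TRBV15 and the TRBV19 beta chain were added after their values were seen. Coordinates were taken from RefSeq for GRCm38.p6, where 17 of 17 TRB genes looked up matched.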

Additional observations from a re-analysis of the deposited data

Results flagged for a closer look

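For 3 measures TRBV1 differed from other TRBV genes in opposite directions in the 2 libraries, and none of these differences was tested, since each genotype has 1 library. For cells without an alpha chain, TRBV1 was 9.14 percentage points above other genes in WT and -12.7 points from them in p53 KO, a difference of -21.8 points; without the largest clonotype of each library TRBV1 was higher in both, and counted by clonotypes with no alpha chain in any cell it was lower in both. For clonotypes of 2 or more cells the values were 9.63 and -2.45 percentage points, a difference of -12.1 points, and both directions turned under other ways of counting. For mean CDR3 beta length they were -0.23 and 0.46 amino acids, a difference of 0.69, which is under 1 SD of the lengths. TRBJ2 use and D gene calls over all J genes had the same direction against other genes in both libraries. Among WT clonotypes with a TRBJ2 gene, however, D gene calls were lower with TRBV1 (20.0% against 25.2%). TRBC2 use had the same direction in both libraries, but it is not a separate result, since every C gene call was of the same cluster as the J gene.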

How the results depend on the processing

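Of 80 recomputed values planned for the 9 measures in both libraries, 74 lay within the interval of the reported value (for mean length, within 2 standard errors over clonotypes). The alternatives were only cells with both chains, only beta contigs with 3 or more UMIs, no cells with several beta chains, distinct beta chains in place of clonotypes, cells in place of clonotypes, and leaving out the largest TRBV1 clonotype. The other 6 were all in p53 KO. Without its largest clonotype the TRBV1 share of cells was 4.98% and the share without an alpha chain 31.3%. With cells in place of clonotypes the mean length was 16.1 amino acids, TRBJ2 use and with it TRBC2 use were 87.0% each, and D gene calls were in 76.1%. In WT, clonotypes of 2 or more cells were 16.0% among cells with both chains, 13.0% with 3 or more UMIs and 37.5% over distinct beta chains, against 26.9% as reported, and in p53 KO 8.33%, 12.5% and 20.0%, against 12.5%. With the same counting applied to other TRBV genes, chosen after seeing the data, the WT difference from them was -1.74 percentage points with both chains and -2.07 with 3 or more UMIs, against 9.63. The p53 KO one was 1.95 over distinct beta chains, against -2.45. For a missing alpha chain the WT difference was -9.24 points by clonotypes, against 9.14 by cells, and the p53 KO one was 3.38 without the largest clonotype, against -12.7. Counting the repeated TRAJ34 receptors once, chosen after seeing the data, is given in the report. No paired analysis was possible because the labels carry no replicate numbers and each genotype has 1 library. The 26 WT and 16 p53 KO clonotypes leave wide intervals for every share, and the alternatives recount much the same clonotypes. Lying within an interval is therefore a weak check of stability. The 80 values also include those of TRBC2, each equal to the TRBJ2 value.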
